A study of Homo sapiens with 4 samples.

Results

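The 10 genes COL4A1, COL4A2, COL18A1, COL5A1, COL6A1, COL6A2, SERPINH1, LOXL1, LOXL2 and SPARC, which encode collagen chains and proteins that fold, cross-link or bind them, were followed in a map of N6-methyladenosine (m6A) in HEK293T cells, a human embryonic kidney line. They were taken by gene name from 4 tables of called m6A sites. They are 10 of 15209 gene names in those tables, and 162 of the 218950 sites listed in any library carried one of the 10 names. Of these 162 sites, 54 were listed in all 4 libraries, as were 40.3% of all listed sites in named genes, and the 53 with at least 20 reads in each library were tested. They lie in 9 of the genes, since LOXL1 had no site listed in all 4 libraries.

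Cells given ascorbic acid for 36 h, starting 24 h after seeding and with fresh medium every 6 h, were compared with control cells, 2 libraries each. All were wild-type HEK293T cells in the same culture medium. The sources used here state neither the dose nor what the control cells received. The assay, GLORI, treats RNA with glyoxal and nitrite, which deaminate plain adenosine and leave m6A intact, so the sequencer reports G for the first and A for the second. A site's m6A level is the share of A among its A plus G reads, given as a percent. The labels do not say that the 2 libraries of a group came from separate cultures, so the p-values measure only the spread between these samples, which may be technical.

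Collagens are proteins of 3 chains wound into a triple helix. In the endoplasmic reticulum their proline and lysine residues are hydroxylated by dioxygenases that use iron, oxoglutarate and ascorbate, and the chaperone encoded by SERPINH1 then holds the folded helix until export. Type IV collagen forms the network of basement membranes, type V takes part in fibrils, type VI forms beaded filaments around cells and type XVIII is a basement membrane collagen that carries heparan sulfate. Lysyl oxidases cross-link the chains outside the cell, and SPARC is a secreted protein that binds collagen. In messenger RNA, m6A is written mostly in the sequence DRACH (D stands for any base but C, R for a purine and H for any base but G), often near stop codons and in 3′ untranslated regions, and it is removed by the dioxygenases FTO and ALKBH5, which use the same cofactors.

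The libraries held 25146378 and 26816350 A plus G reads at listed sites with ascorbic acid and 22592887 and 28562744 in control. The 53 tested sites had median depths of 103 and 112 reads with ascorbic acid and 74 and 93 reads in control, and single values ran from 20 to 1254 reads. Reads that escaped conversion made up 2.36% to 3.61% of these genes' adenosines with ascorbic acid, against 2.07% to 3.50% in control 1 and 3.29% to 5.15% in control 2, from the authors' conversion rate per gene. With A reads lowered by that share, the number of tested sites called as falls, given below, was again 23. Of 10 genes known from HEK293 cells, 8 had coverage in all 4 libraries, and PAX2 and PAX8 were not listed. Of the 10 fibroblast markers, COL1A1 and COL3A1 were listed, in both ascorbic acid libraries and control 2. None of 6 endothelial markers was listed, and of 5 leukocyte markers CD68 was listed, in 1 library. A gene is listed only where it has a called site, so an unlisted marker has no level here.

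The reference tables at hand gave the sequence around 8 of the 162 sites, which lie near an annotated gene start. Those that bear on the results are shown 5′ to 3′ on the strand of the transcript (RefSeq, GRCh38.p14), with the listed adenosine in capitals. The first pair are the sites at the annotated first base of SPARC (chr5:151686901-151686930, minus strand) and SERPINH1 (chr11:75562238-75562267, plus strand), which were listed in all 4 libraries. The second pair are COL6A2 sites listed in both control libraries and neither ascorbic acid library (chr21:46112039-46112068 and chr21:46112111-46112140, plus strand). The last stretch holds a pair of COL4A2 sites 6 nt apart, inside a repeated hexamer (chr13:110508130-110508159, plus strand), that were listed in 3 libraries. The annotated starts near the COL6A2 pair and the COL4A2 pair are those of other genes on the minus strand, LOC124905043 and COL4A2-AS1. LOXL2 sites were left out of this sequence search.
SPARC first base: ttcccgcggtccttcAgactgcccggagag
SERPINH1 first base: gcaggggagcgggctAagagtagaatcgtg
COL6A2 at 46112054: tgcagtcccccacggAcatcctgctcttcc
COL6A2 at 46112126: acgagttctacctggAccaggtggcgctga
COL4A2 pair: ccAtcgccAtcgcggtccacagtcaggatg
The 2 COL6A2 sites were the only ones of the 8 in a DRACH sequence. The bases around the other sites, which include all tested ones but the first pair, were not analysed here.

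m6A was lower with ascorbic acid on most of these transcripts. Of the 53 tested sites, 23 fell and 0 rose (edgeR quasi-likelihood test of A against G reads, adjusted p under 0.05 over the whole table); none was higher at an unadjusted p under 0.05, and DESeq2 and limma also called 0 rises. The falls were 43.4% of the tested sites, beside 25.7% of all 78509 tested sites that fell and 0.219% that rose. With at least 50 reads per library, 32 sites were tested and 13 fell (40.6%, beside 31.6% of all sites tested so). With DESeq2 13 of the 53 fell (24.5%, beside 12.7% of all), and without ascorbic acid 2 the number was 14 (26.4%, beside 15.8% of all). The median over the 53 sites was 24.3% and 27.1% in the ascorbic acid libraries, against 42.3% and 36.9% in the control libraries. Each ascorbic acid value was thus under each control value, and the group means differed by -13.9 percentage points (25.7 ± 2.001 with ascorbic acid and 39.6 ± 3.80 in control, SD, n = 2 each). The same difference was -7.04 points over all tested sites, and -4.54 points when each library's median was taken over every site of the 10 genes listed in it. The mean level was lower with ascorbic acid by some amount at 52 of the 53 sites, beside 82.9% of all tested sites. At 41 of them the groups did not overlap and ascorbic acid was the lower, which is 77.4% beside 55.4% of all tested sites, and at 0 of them it was the higher, beside 4.22%. The median difference was -11.2 points for the 53 sites and -4.89 points over all tested sites. Falls of more than 20 points were called at 16 of the 53 sites, beside 8.07% of all tested sites.

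**Figure D1:**
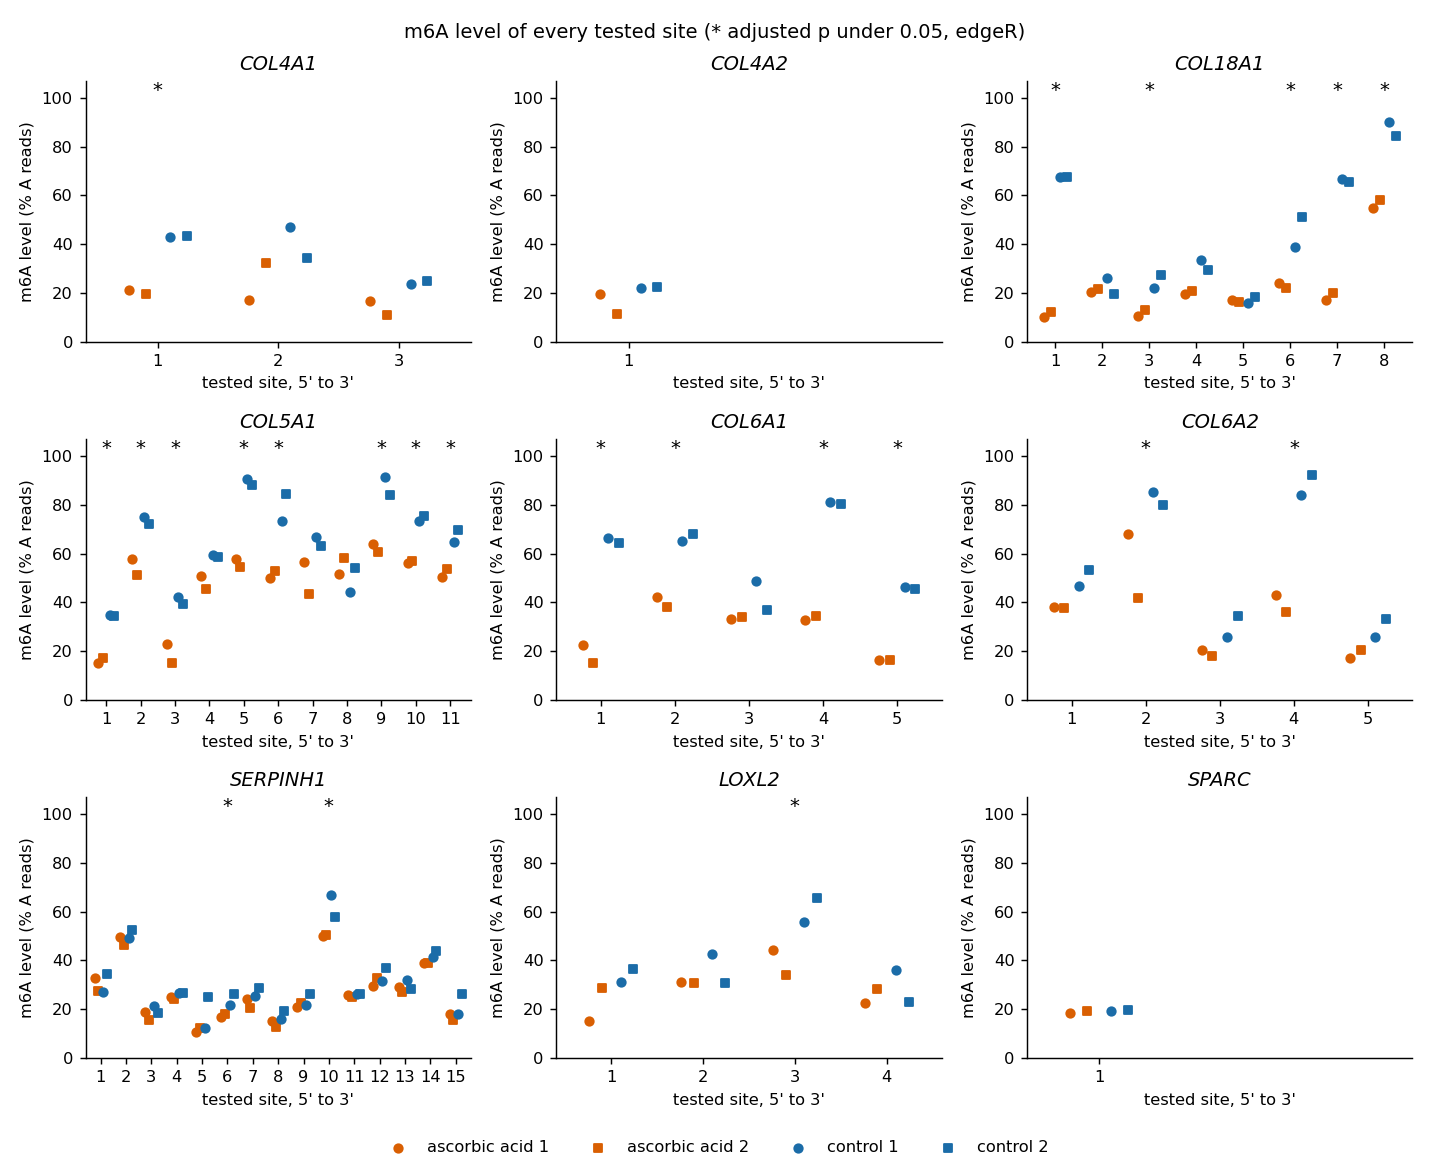
m6A level (percent A reads, vertical axis) of each of the 53 tested sites in each library, in 9 panels by gene with sites in order from 5′ to 3′; circles and squares are replicates 1 and 2, and an asterisk marks an edgeR adjusted p under 0.05. The ascorbic acid points sit below the control points at most COL18A1, COL5A1, COL6A1 and COL6A2 sites and lie close to or among them at many SERPINH1 sites and at the SPARC site.

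Sites with a high level fell more often. Among sites whose mean over the 4 libraries was 50% or more, 12 of 15 fell, beside 42.9% of all tested sites of that level. From 30% to 50%, 7 of 15 fell, beside 22% of all, and under 30%, 4 of 23 fell, beside 12%. The 23 sites that fell had a median of 39.2% with ascorbic acid and 66.6% in control, while the 30 that did not pass had 23.4% with ascorbic acid and 29.8% in control. Median depth was 62.8 reads for the highest class of these genes' sites and 168.5 for the lowest, and its part in the calls was not tested. Most of the tested sites, 43 of 53, lay within 3000 nt of the gene's annotated 3′ end. The genomic distance to it had a median of 650 nt for the sites that fell and 1002.5 nt for those that did not pass. Exon and untranslated region boundaries were not used here.

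Among the basement membrane collagens, COL4A1 and COL18A1 fell and COL4A2 did not pass. COL4A1 (chr13:110148963-110307157, minus strand) and COL4A2 (chr13:110307284-110513209, plus strand) encode the α chains that wind together into the common type IV helix, and they lie head to head. For COL4A1, the level over its 3 tested sites was 18.4% and 17.6% with ascorbic acid, against 35.5% and 33.3% in control, on 129 to 176 summed reads. Both ascorbic acid libraries were near the same low level, and the odds of an A read changed by -1.26 on the log2 scale (SE 0.26, edgeR adjusted p = 0.000339). By count 1 of the 3 sites fell. That site (chr13:110150296) had 21.1% and 19.7% with ascorbic acid, against 43.1% and 43.2% in control (log2 odds -1.56, SE 0.41, adjusted p = 0.00300), with an adjusted p of 0.116 with DESeq2 and 0.0503 without ascorbic acid 2. At the deepest site (chr13:110149864) the levels were 16.7% and 10.98% with ascorbic acid, against 23.5% and 25.0% in control, which did not pass (adjusted p = 0.0825).

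COL4A2 had a single tested site (chr13:110512548), with 19.4% and 11.1% with ascorbic acid, against 22% and 22.2% in control, on 36 to 54 reads. The ascorbic acid libraries differed from each other by more than the nearer of them differed from control, and the change did not pass (log2 odds -0.74, SE 0.52, adjusted p = 0.238 over genes). A further 2 COL4A2 sites were listed in both control libraries and neither ascorbic acid library, 0 in the reverse pattern, and could not be tested. Control levels were 18.8% and 25.0% on 165 and 116 reads at chr13:110511998. At chr13:110512234 they were 22.1% and 24.2% on 86 and 99 reads. COL4A1 minus COL4A2 changed by -0.55 in log2 odds between the groups. An exact two-sided permutation test of that value gave p = 0.333, the smallest that 2 libraries against 2 allow, so this design cannot pass the threshold whatever the size of the difference.

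COL18A1 (chr21:45405165-45513720, plus strand), whose C-terminal fragment is endostatin, had 17.1% and 18.2% with ascorbic acid, against 41.4% and 43.7% in control, over 8 sites. The groups lay far apart relative to the replicates, with 695 to 897 summed reads per library (log2 odds -1.79, SE 0.13, adjusted p = 2.99e-10). Of its 8 sites, 5 fell. The largest fall of any tested site in the 10 genes was at chr21:45468671, 45049 nt before the 3′ end of the gene. This site had 10.1% and 12.3% with ascorbic acid, against 67.7% and 67.7% in control, on 186 to 269 reads (log2 odds -4.03, SE 0.23, adjusted p = 1.68e-18). Its ascorbic acid values lay close to the 10% below which the tables list no site. At chr21:45512763, 957 nt before the 3′ end, the levels were 16.9% and 16.1% with ascorbic acid, against 15.7% and 18.1% in control, and the groups overlapped (adjusted p = 0.941).

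COL18A1 also had sites with a high level that were listed in control alone. A stretch of 364 nt (chr21:45468407-45468770) around its largest fall held 6 listed sites, of which 3 were listed in both control libraries and in neither ascorbic acid library. These 3, singled out after their values were seen apart from the first, lay 49 to 198 nt from the site of the largest fall. At chr21:45468473 the control levels were 55.2% and 64.9% on 239 and 259 reads. At 45468536 they were 24.7% and 31.3%, and at 45468622 they were 40.8% and 49.2%. The last site of the stretch, chr21:45468770, was tested and did not pass (edgeR adjusted p = 0.879). Its levels were 20.3% and 21.6% with ascorbic acid, against 26.2% and 19.5% in control, and the groups overlapped. A site is listed with at least 15 A plus G reads, 5 A reads and a level of 10%, so an unlisted site has no value and only the failure of some limit is known. With ascorbic acid, depth was 199 and 252 reads at the site of the largest fall and 74 and 97 reads at chr21:45468770. Depth at the unlisted sites is not known, and its part in the listing was not tested.

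The fibrillar chain fell at most of its sites and kept a higher level than the other collagens. COL5A1 (chr9:134641803-134844843, plus strand) encodes the α1 chain of type V collagen, which helps set the width of collagen fibrils. Over 11 tested sites it had 48.2% and 46.4% with ascorbic acid, against 65.6% and 67.3% in control (log2 odds -1.15, SE 0.11, adjusted p = 4.41e-08). The gap between the groups was many times that between replicates, and 8 of the 11 sites fell. The deepest site (chr9:134843496) had 50.0% and 52.8% with ascorbic acid, against 73.5% and 84.4% in control (log2 odds -1.86, SE 0.26, adjusted p = 1.45e-07). The largest fall, at chr9:134842672, was to 57.6% and 54.4% with ascorbic acid, against 90.5% and 88.0% in control (log2 odds -2.66, SE 0.46, adjusted p = 1.17e-05). One COL5A1 site, chr9:134843795, was the only tested site of the 10 genes with a higher mean under ascorbic acid. Its levels were 51.6% and 58.2% with ascorbic acid, against 44.2% and 54.3% in control, and the groups overlapped (adjusted p = 0.619).

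Both type VI chains fell. COL6A1 (chr21:45981770-46005048) and COL6A2 (chr21:46098112-46132848) encode the α1 and α2 chains of the beaded filament collagen and lie near each other on the plus strand. COL6A1 had 29.8% and 27.9% with ascorbic acid, against 61.2% and 58.6% in control, over 5 sites with 528 to 1013 summed reads. This was the largest change of the 9 genes on the log2 odds scale (-1.88, SE 0.12, adjusted p = 1.08e-10), and 4 of its 5 sites fell. The steepest site (chr21:46004846) had 32.7% and 34.4% with ascorbic acid, against 81.1% and 80.3% in control (log2 odds -3.04, SE 0.25, adjusted p = 4.06e-13). A site 12 nt upstream, chr21:46004834, had 33.3% and 33.8% with ascorbic acid, against 48.7% and 36.7% in control, and did not pass (adjusted p = 0.111, and 0.0342 without control 2). The same molecules can cover both positions, and at the second the control libraries differed from each other by more than the group means did.

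COL6A2 had 36.6% and 29.8% with ascorbic acid, against 53.5% and 58.3% in control, over 5 sites with 200 to 406 summed reads (log2 odds -1.37, SE 0.20, adjusted p = 7.72e-06). Its ascorbic acid libraries differed from each other more than those of COL6A1 did, but all 5 sites were lower in both ascorbic acid libraries than in both control libraries, and 2 of them fell. The strongest (chr21:46132494) had 42.9% and 35.9% with ascorbic acid, against 83.9% and 92.2% in control (log2 odds -3.45, SE 0.40, adjusted p = 3.58e-09). COL6A1 minus COL6A2 changed by -0.52 in log2 odds, with the smallest exact p that the design allows (0.333, two-sided). The 2 DRACH sites of COL6A2 printed above lie 13942 and 14014 nt from the annotated start. The first had control levels of 11.8% and 16.9% on 76 and 59 reads, and the second 17.4% and 14.5% on 69 and 62 reads; both were picked after their values were seen, because their sequence was at hand.

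**Figure D2:**
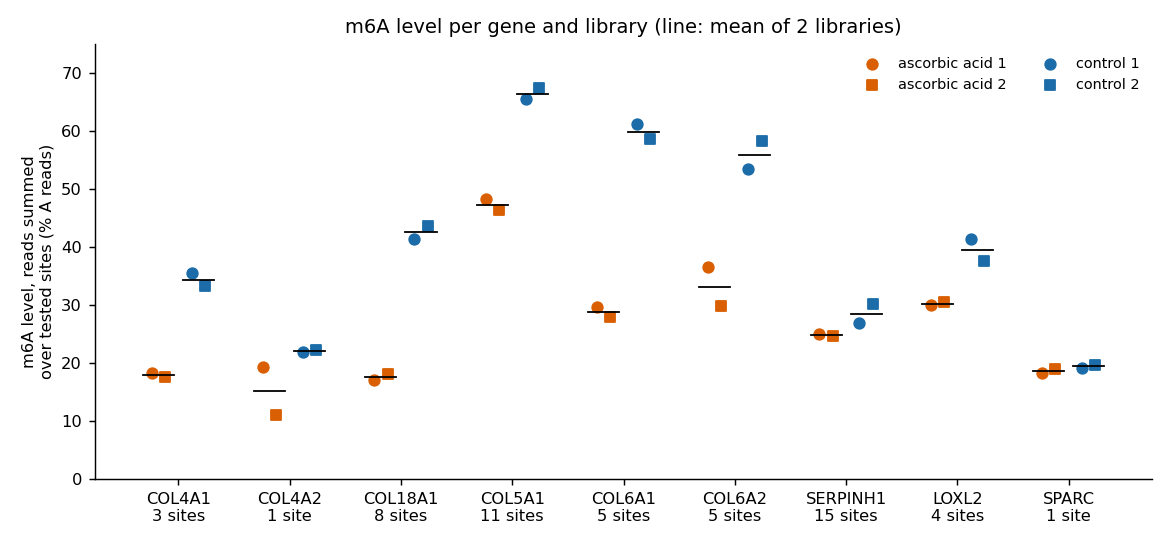
m6A level of each gene in each library (percent A reads summed over the tested sites of the gene, vertical axis), with circles and squares for replicates 1 and 2, a line at the mean of 2 libraries and the number of tested sites under each name. The 5 collagens from COL4A1 to COL6A2 other than COL4A2 show wide gaps between the groups, SERPINH1 and LOXL2 narrow ones, and SPARC almost none.

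The chaperone gene had many deep sites and small changes. SERPINH1 (chr11:75562253-75572783, plus strand) had 25.1% and 24.7% with ascorbic acid, against 26.9% and 30.2% in control, over 15 sites with 5764 to 8213 summed reads. The groups did not overlap, yet the gap from the ascorbic acid libraries to control 1 was smaller than the gap between the 2 control libraries. The change passed over all genes (log2 odds -0.26, SE 0.08, adjusted p = 0.00771), but the adjusted p was 0.0634 without ascorbic acid 1 and 0.106 without ascorbic acid 2. With limma on log2 odds the gene did not pass (adjusted p = 0.138), while with DESeq2 it did (0.0357). Of the 15 sites, 2 fell. One, chr11:75571860, had 16.9% and 17.8% with ascorbic acid, against 21.5% and 26.1% in control (log2 odds -0.56, SE 0.16, adjusted p = 0.00852). The other, chr11:75572133, had 50.0% and 50.3% with ascorbic acid, against 66.9% and 57.7% in control (log2 odds -0.70, SE 0.26, adjusted p = 0.0366). These 2 edgeR calls were not made by DESeq2 (adjusted p = 0.123 and 0.360) or limma (0.166 and 0.153). Neither call held when either ascorbic acid library was left out, or, at the first, without control 2 and, at the other, without control 1 (adjusted p from 0.0741 to 0.332). The deepest site of the 10 genes, chr11:75572007, had 21.1% and 22.7% with ascorbic acid, against 21.7% and 26.1% in control on 928 to 1254 reads. Its groups overlapped (adjusted p = 0.417). COL6A1 minus SERPINH1 changed by -1.62 in log2 odds, again with an exact p of 0.333.

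The cross-linking enzymes were covered thinly. LOXL2 (chr8:23296897-23404120, minus strand) had 30.0% and 30.5% with ascorbic acid, against 41.4% and 37.6% in control, over 4 sites with 141 to 213 summed reads. The groups did not overlap and the change passed (log2 odds -0.59, SE 0.23, adjusted p = 0.0311), but not without ascorbic acid 1 (0.108), ascorbic acid 2 (0.0964) or control 1 (0.158). With DESeq2 the gene did not pass (adjusted p = 0.178), while with limma on log2 odds it did (0.0218). The 1 fallen LOXL2 site, chr8:23297423, had 44.4% and 34% with ascorbic acid, against 55.9% and 65.6% in control on 32 to 54 reads. This site did not pass with DESeq2 (adjusted p = 0.354) or limma (0.0695), but edgeR called it (log2 odds -1.23, SE 0.44, adjusted p = 0.0343). That call was lost without ascorbic acid 2 (0.248), control 1 (0.0542) or control 2 (0.272).

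LOXL1 (chr15:73926462-73952136, plus strand) had 12 listed sites, 7 and 9 of them in the ascorbic acid libraries and 2 each in the control libraries. Its 2 sites listed in both ascorbic acid libraries and neither control library were the only ones of that kind in the 10 genes. They had 15 to 25 reads, near the list limit of 15, and levels of 27.8% to 93.3%. LOXL1 coverage, given below, was also higher in both ascorbic acid libraries, and its part in the listing was not tested.

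SPARC and SERPINH1 each had a tested site at the annotated first base of the gene. SPARC (chr5:151661096-151686915, minus strand) had no other tested site, and its level there was 18.3% and 19.0% with ascorbic acid, against 19.2% and 19.7% in control on 99 to 231 reads. All 4 values lay close together and the change did not pass (log2 odds -0.08, SE 0.30, site adjusted p = 0.893). The SERPINH1 first base had 32.9% and 27.6% with ascorbic acid, against 27.2% and 34.4% in control, with overlapping groups (adjusted p = 0.958). At the first transcribed base, adenosine can carry m6Am, a methylated form that is known to be read as A as well, and these files do not tell it from m6A. Over all genes, 722 tested sites lay at an annotated first base. Of these, 0.416% fell and 0.693% rose. Their median level was 29.5% and 30.5% with ascorbic acid, against 27.4% and 31.9% in control. COL4A1 and COL6A1 had a site at their first base in 1 library each, at 13.2% on 38 reads with ascorbic acid 2 and at 13.04% on 69 reads in control 2.

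Summed by gene, m6A fell for 7 of the 9 measured genes, rose for 0 and did not pass for COL4A2 and SPARC, beside 56.7% of all 10782 measured genes that fell and 0.297% that rose. The median change was -1.15 in log2 odds over the 9 genes and -0.39 over all measured genes. Ascorbic acid was the lower with no overlap for 9 of 9, beside 76.7% of all genes. Among the genes with at least 3 tested sites (COL4A1, COL18A1, COL5A1, COL6A1, COL6A2, SERPINH1 and LOXL2) all fell, beside 68.2% of all genes with as many. The order of the gene levels with ascorbic acid, from high to low, was COL5A1, COL6A2, LOXL2, COL6A1, SERPINH1, SPARC, COL4A1, COL18A1 and COL4A2. In control it was COL5A1, COL6A1, COL6A2, COL18A1, LOXL2, COL4A1, SERPINH1, COL4A2 and SPARC. With ascorbic acid, COL6A2 overlapped LOXL2, and SPARC, COL4A1, COL18A1 and COL4A2 each overlapped a neighbour in that order, while COL5A1 stood above all others in every library. In control, COL18A1 overlapped LOXL2, and the gaps from COL6A1 to COL6A2, from LOXL2 to COL4A1 and from COL4A1 to SERPINH1 were smaller than the spread between replicates of one of the pair.

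Sites listed in both libraries of one group and neither of the other were mostly control sites. Of the 162 listed sites, 12 were listed in both control libraries and neither ascorbic acid library (3.13% of all listed sites in named genes were), and 2 in the reverse pattern (2.68% of all). The 12 lay in COL18A1 (4), COL6A1 (3), COL4A2 (2), COL6A2 (2) and SPARC (1), with 59 to 404 control reads and control levels of 10% to 64.9%. In 9 of the 12 the depth was at least 100 reads in both control libraries. SPARC had such a site at chr5:151662874, with 10.9% and 12.1% on 265 and 404 control reads, just above the list limit. Another 69 of the 162 sites were listed in 1 library, as were 33.7% of all listed sites in named genes. These were 37 in an ascorbic acid library and 32 in a control library, which is 53.6% with ascorbic acid beside 49% over all named genes. In all, 39 sites were listed with ascorbic acid alone and 44 in control alone, beside 35940 and 38093 over all named genes. Of the 54 sites listed in all 4 libraries, 0 had a listed site exactly 6 nt away, beside 3.89% of all such sites in named genes. Of the 108 other sites 12 did, which is 11.1% here and 11.1% of all such sites in named genes.

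**Figure D3:**
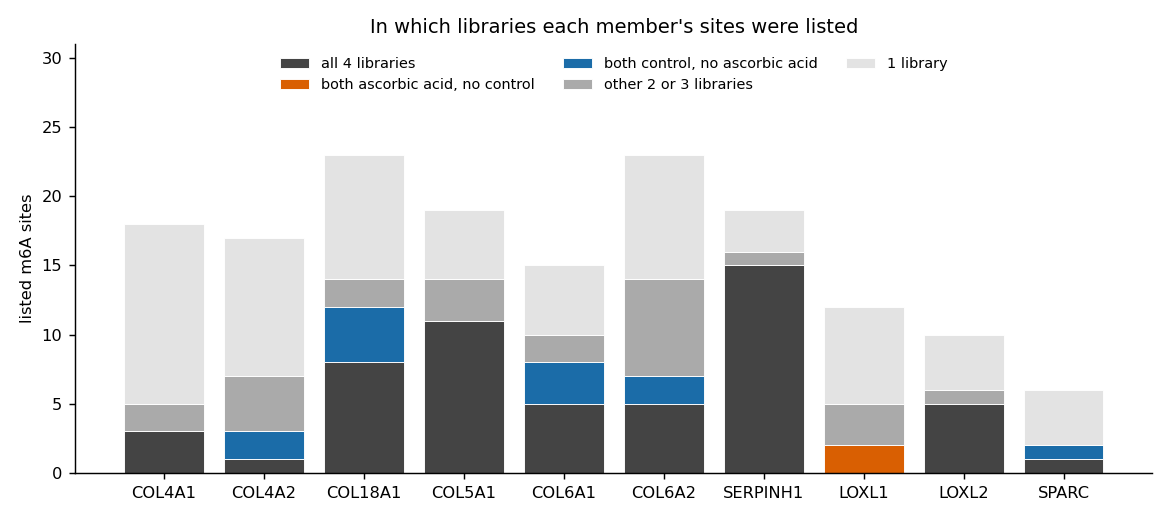
Number of listed m6A sites (vertical axis) of each of the 10 genes, stacked by the libraries that listed them: all 4, both ascorbic acid and no control, both control and no ascorbic acid, other sets of 2 or 3, or 1. Sites listed in both control libraries alone appear in 5 genes with 12 sites in all, and the reverse pattern in LOXL1 alone with 2.

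Read coverage rose for 3 of the 10 genes, SPARC, COL6A1 and COL6A2, and fell for 0. The authors give 1 coverage value per gene and library, whose unit no source defines. Size factors from median ratios over genes scaled the libraries, and the values were tested with limma over 11848 genes, of which 0.253% rose and 0.0422% fell. More RNA per cell and more cells with the RNA cannot be told apart in these bulk libraries. SPARC had scaled coverage of 234 and 225 with ascorbic acid, against 147 and 147 in control, a 1.56-fold difference (log2 0.64, SE 0.06, adjusted p = 0.0175). COL6A1 had 145 and 149 with ascorbic acid, against 93.5 and 95.2 in control, also 1.56-fold (log2 0.64, SE 0.06, adjusted p = 0.0175). For COL6A2 the values were 61.1 and 60.1 with ascorbic acid and 43.0 and 39.4 in control, a 1.47-fold difference (log2 0.56, SE 0.07, adjusted p = 0.0431). In each of these 3 genes the replicates of a group lay close together and the groups did not overlap. Without ascorbic acid 1 no coverage call of the 10 genes remained (adjusted p = 0.0920 for SPARC, 0.0719 for COL6A1 and 0.162 for COL6A2). Without ascorbic acid 2 SPARC alone passed, with 0.0530 for COL6A1 and 0.0965 for COL6A2, and without control 2 COL6A2 did not pass (0.0534).

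The other 7 genes did not pass. At an unadjusted p under 0.05, 5 of the 10 were higher, the 3 called with LOXL1 and LOXL2, beside 8.14% of all genes, and 0 were lower, beside 6.29%. LOXL1 came nearest, with 33.8 and 31.4 with ascorbic acid, against 23.6 and 24.0 in control (1.37-fold, log2 0.45, adjusted p = 0.0765). LOXL2 had 37.3 and 34.8 with ascorbic acid, against 32.1 and 29.1 in control (1.18-fold, adjusted p = 0.258). The SERPINH1 control libraries differed widely, with 431 and 456 with ascorbic acid and 423 and 334 in control (1.18-fold, adjusted p = 0.400), and without control 1 the adjusted p was 0.0327. COL5A1 was at 1.12-fold (adjusted p = 0.371), COL4A1 at 1.06-fold (0.617), COL18A1 at 0.982-fold (0.885) and COL4A2 at 0.960-fold (0.674). Both ascorbic acid libraries lay above both control libraries for 8 of the 10 genes, beside 23.2% of all genes, and below for COL4A2 alone, beside 23.6%.

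**Figure D4:**
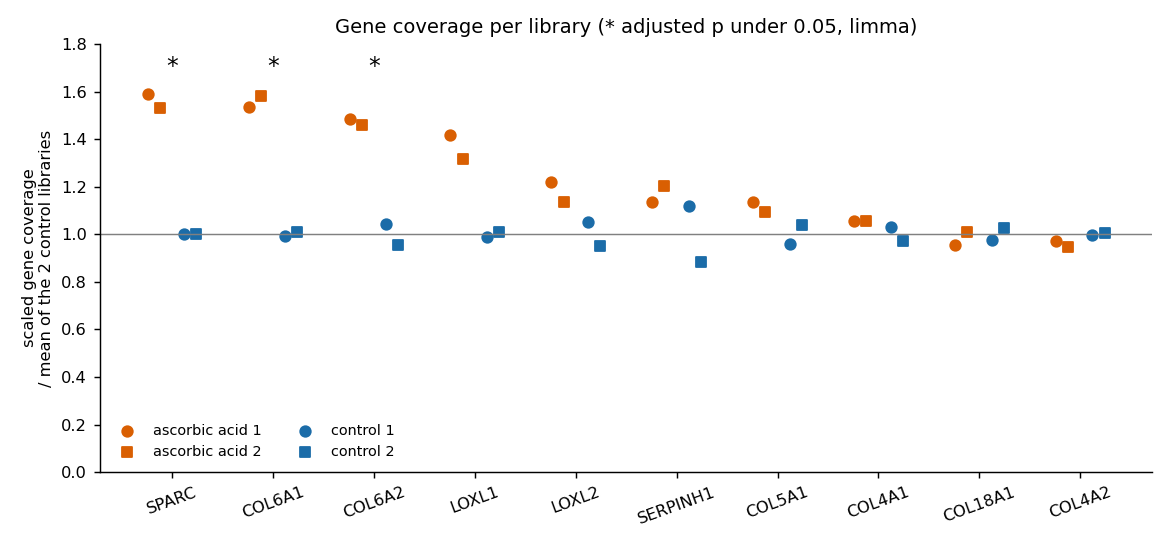
Scaled gene coverage in each library, divided by the mean of the 2 control libraries (vertical axis, no unit), for the 10 genes in order of the difference; circles and squares are replicates 1 and 2, and an asterisk marks a limma adjusted p under 0.05. SPARC, COL6A1 and COL6A2 sit near 1.5 in both ascorbic acid libraries, and COL4A1, COL18A1 and COL4A2 sit near 1.

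Of the 3 genes whose coverage rose, COL6A1 and COL6A2 fell in m6A. SPARC was measured at its first base alone, where the change did not pass, and a difference from the other two was not tested. COL18A1, COL5A1 and COL4A1 fell in m6A with coverage changes that did not pass. Over the whole table, 25 genes whose coverage rose had m6A measured, and 14 of them fell in m6A, beside the 56.7% of all genes given above; COL6A1 and COL6A2 are 2 of the 14.

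**Figure D5:**
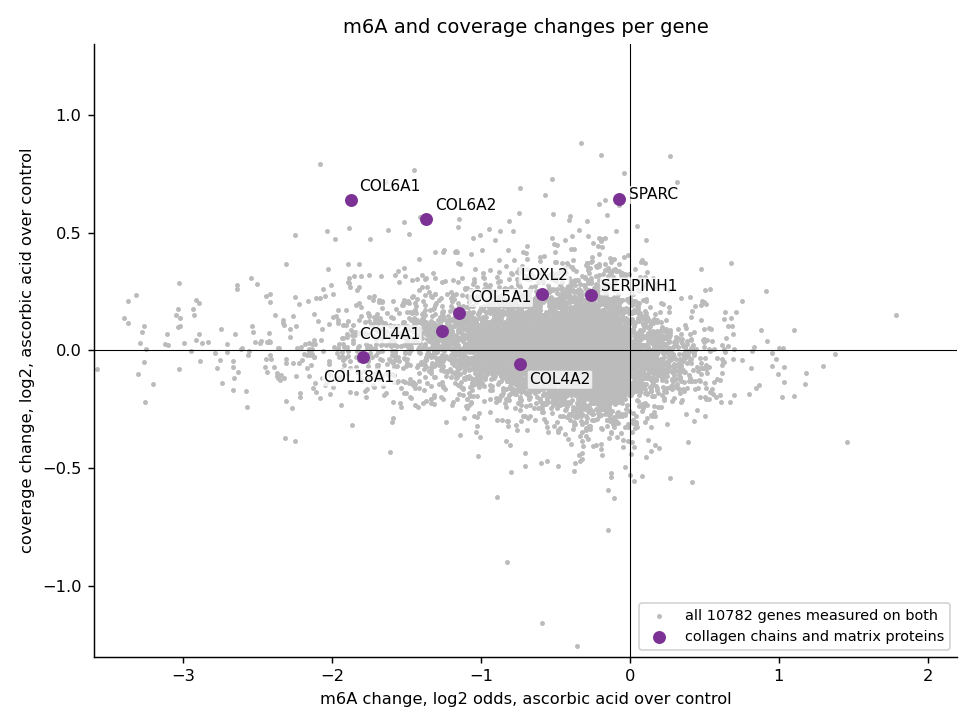
Change in m6A (horizontal axis, log2 odds, ascorbic acid over control) against change in scaled coverage (vertical axis, log2, ascorbic acid over control) for 10782 genes measured on both, of which 13 lie outside the axes; grey points are all genes and purple points the 9 measured collagen and matrix genes. COL6A1 and COL6A2 lie at the upper left, SPARC at the top near no m6A change, and COL18A1 at the far left near no coverage change.

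Gene starts are shown for the pair with a shared start region and for the coverage rises that the promoter table holds. COL4A1 and COL4A2 run apart from starts separated by 126 bases (chr13:110307158-110307283, plus strand), and the 120 bases before the SPARC start (chr5:151686916-151687035, minus strand) and the COL6A2 start (chr21:46097992-46098111, plus strand) are given beside them. Capitals mark matches to a GC box motif (GGGCGG), to the pentamer known from many promoters (CCAAT) and to the core promoter element for TBP (TATAAA), each searched on both strands, and no match overlaps another here.
COL4A1 to COL4A2: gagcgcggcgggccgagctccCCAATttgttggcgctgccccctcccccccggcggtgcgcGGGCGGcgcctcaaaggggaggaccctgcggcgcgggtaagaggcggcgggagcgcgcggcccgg
SPARC: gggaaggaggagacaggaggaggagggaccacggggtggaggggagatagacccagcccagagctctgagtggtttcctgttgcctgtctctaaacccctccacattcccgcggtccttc
COL6A2: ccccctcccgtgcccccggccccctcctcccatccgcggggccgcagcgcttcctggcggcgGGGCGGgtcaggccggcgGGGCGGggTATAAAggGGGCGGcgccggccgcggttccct
In windows from 250 bases before to 50 after the start, 6 of the 8 genes with a window held GGGCGG (45.0% of all 35116 windows did), 3 held CCAAT (34.6% of all) and 2 held TATAAA (11.5% of all). The counts are of genes with a match in any of their windows (11 windows for the 8 genes), while the shares are of single windows. The 126 bases between the COL4A1 and COL4A2 starts lie within 250 bases of both, so a match there counts for both genes. These are matches of letters and say nothing of binding.

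Lists of genes that modify, fold, export and anchor collagen held further falls in m6A and no coverage call; the share of all measured genes that fell, 56.7%, is the value to set beside each count. Genes named from a list were picked from its 4 of smallest p, so they are not typical of it. Of 17 genes for collagen hydroxylation and folding, 15 were measured and 14 fell, 0 rose, with a median of -0.66 in log2 odds. FKBP10, a prolyl isomerase of the endoplasmic reticulum, had 26.1% and 26.8% with ascorbic acid, against 39.7% and 41.4% in control (adjusted p = 1.71e-09). P4HB, a subunit of prolyl 4-hydroxylase, had 36.3% and 35.7% with ascorbic acid, against 45.4% and 47.0% in control (adjusted p = 7.42e-08). Of 34 other collagen genes, 7 were measured and 5 fell, with a median of -0.96 in log2 odds. COL4A6, another type IV chain, had 44.8% and 38.3% with ascorbic acid, against 71.8% and 73.8% in control (adjusted p = 3.99e-08).

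Of 21 basement membrane partners, 10 were measured and 6 fell, with a median of -0.45 in log2 odds. AGRN, which encodes the heparan sulfate proteoglycan agrin, had 28.3% and 26.6% with ascorbic acid, against 53.5% and 56.6% in control (adjusted p = 3.00e-11). NID2, a nidogen that binds laminin and type IV collagen, had 25.0% and 23.6% with ascorbic acid, against 54.3% and 58.0% in control (adjusted p = 4.84e-08). Of 20 genes for procollagen export and collagen receptors, 16 were measured and 11 fell, with a median of -0.62 in log2 odds. Among those that fell was MIA3, which helps load procollagen into vesicles. MIA3 had 31.3% and 27.7% with ascorbic acid, against 48.4% and 45.8% in control (adjusted p = 2.20e-07). Of 16 genes for cross-linking and processing, 9 were measured and 3 fell (PCOLCE2, TIMP1 and TIMP2), with a median of -0.31 in log2 odds over those measured. No gene of these 5 lists rose in m6A, and none was higher at an unadjusted p under 0.05. Of the 63 with coverage in all 4 libraries, 0 passed the limma coverage test; at an unadjusted p under 0.05, 11 were higher (17.5%, beside 8.14% of all genes) and 0 lower (beside 6.29%).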

How the data were processed

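The 4 GLORI libraries of HEK293T mRNA (300 ng each, per the labels' protocols) comprise 2 with ascorbic acid and 2 controls. The submitters' processing notes name Trimmomatic 0.39, STAR, hg38 and GRCh38, without roles; the sources used here do not name the site caller. The A and A plus G read counts per site are whole reads that the authors deposited unscaled. The authors' m6A level and conversion rate are each a fraction, the level being A over A plus G. The gene coverage is a signal that the authors deposited, 1 value per gene and library with no unit stated. The p-value and its adjusted form come from the authors' per-site test, per the file headers, and were not used. The lists start at 15 A plus G reads, 5 A reads and a level of 10%.

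Sites present in all 4 lists, each time on 20 or more reads, were fitted over the whole table with edgeR 4.0.16 (quasi-likelihood, library terms, treatment acting on the odds of A), as were reads summed per gene, where a read over several sites enters more than once. Standard errors are the log2 odds divided by the root of the F statistic. Coverage was divided by median-ratio size factors and fitted with limma 3.58.1 (trended eBayes, log2, no pseudocount). Adjusted p-values are Benjamini-Hochberg values over all features, two-sided, with a threshold of 0.05. Single differences between genes used the exact permutation test (scipy 1.17.1). Alternatives included DESeq2 1.42.0, with R 4.3.3, Python 3.11.15, numpy 2.4.6, pandas 2.3.3 and matplotlib 3.10.9.

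Gene spans, starts and sequences come from RefSeq tables (GRCh38.p14), matched by symbol for 10 of 10 genes, of which 8 had a promoter window. The strand given for a gene is that of its listed sites. The genes, related lists and rules were chosen with earlier results of these data known. For each gene the deepest tested site and those of smallest p, largest fall and largest rise could be named. Up to 2 partly listed sites by depth could be named as well, as could up to 4 genes of smallest p per related list.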

Additional observations from a re-analysis of the deposited data

How the results depend on the processing

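Each alternative changed 1 choice, except the equal-weight mean of site levels, which was also tested with limma. The count of tested sites that fell (23) was 13 with at least 50 reads per library, where 32 sites remained to test, 13 with DESeq2, and 14 to 18 when a library was left out (14 without ascorbic acid 2). The count of genes that fell (7) was 4 when reads were summed over sites listed in any library of each group, which mixes sites of different level, and 5 to 7 when a library was left out. Whether that mixing of sites lowered the count of genes was not tested. The difference of medians (-13.9 points) was -9.70 with at least 50 reads, -4.54 over every site listed in that library and -15.3 without first-base sites, the last chosen after seeing the data. Coverage rises (3) were 0 to 4 when a library was left out: 0 without ascorbic acid 1, 1 without ascorbic acid 2, 4 without control 1. LOXL1 coverage passed with no scaling (adjusted p = 0.00411), a setting that moved the median of all genes up. Calls of COL18A1, COL5A1, COL6A1 and COL6A2 per gene passed in every alternative run, whereas SERPINH1 and LOXL2 lost theirs in 5 each. COL4A1 lost its call with sites listed in any library (adjusted p = 0.147).

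Changes of sign occurred only among values that did not pass. When a library was left out, log2 odds ran from -0.16 to 0.089 at COL18A1 45512763, -0.72 to 0.18 at LOXL2 23297330, -0.72 to 0.013 at LOXL2 23297989, -0.31 to 0.18 at SERPINH1 75562253 (0.17 without ascorbic acid 2) and -0.33 to 0.025 at SERPINH1 75572007, and COL18A1 coverage from -0.068 to 0.015 (0.014 without control 2). With A reads lowered by the unconverted share, COL18A1 45512763 was at 0.062. COL4A2 m6A was at 0.023 with sites listed in any library, and with no scaling log2 coverage was 0.030 for COL4A2 and 0.063 for COL18A1.

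Over all genes, 20141 sites fell, against 10187 with limma on log2 odds, 9991 with DESeq2 and 12407 without ascorbic acid 2. Coverage rises over all genes (30) were 66 with equal sums, 111 with no scaling and 3 to 236 when a library was left out (3 without ascorbic acid 1, 14 without ascorbic acid 2, 236 without control 1).

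The labels' replicate numbers tie no samples across groups. Replicate differences in the 2 groups correlated at -0.01 for site log odds and -0.16 for log2 coverage. With the replicate number as a block, 24 tested sites and 7 genes fell, 0 rose, and coverage rose for 3 and fell for 0; over all genes coverage rose for 70. Single tested values rest on as few as 20 reads, and a fall to under 10% could not be measured. No tested site of the 10 genes lay 6 nt from another listed site. None lay on the opposite strand in the 8 genes with a promoter window, and the strand was not checked for the others.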
